A study of Mus musculus with 14 samples.

Results

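The antiviral interferon-stimulated genes described here are 39 genes of families known for restricting viruses or sensing viral nucleic acid, most of which cells switch on when an interferon binds its receptor. They were taken by gene name, so that single members such as Ifitm5 and Ifi30 have other known roles, and were read from an Agilent whole mouse genome array: the 2'-5'-oligoadenylate synthetases (names starting Oas and then a digit or l), the genes named Ifi with a number, Ifit, Ifitm or Ifih1, and Isg20, Mx1, Mx2, Rsad2, Ddx58, Rtp4, Bst2 and Eif2ak2. The 39 genes were covered by 61 of the 41174 probes on the array, out of 28477 genes in all. The probe with the highest mean over the arrays stood for its gene. Of the 39, 35 were well above background on at least 3 of the 14 arrays and were tested among 17035 genes. The other four, Ifi202b, Oas1d, Oas1g and Oas1h, were well above background on 0 to 2 arrays and are described only by that. No probe was named Dhx58. The probe named D11Lgp2e matched Dhx58 by accession and is given apart from the 39.

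RNA came from B16F10 tumours, a melanoma line of C57BL/6 mice, grown in C57BL/6 hosts and pooled before hybridisation. In the CTL arm, hosts were given CD90.1-marked cytotoxic T lymphocytes (CTLs), activated in culture, that recognised gp100, the melanocyte protein made from Pmel. There was 1 CTL array for each of days 1, 3, 5 and 7 after the transfer, from 4 pooled tumours. In 2 further arms the same transfer was combined with intraperitoneal anti-IFNg, an antibody against interferon gamma, or with control rat IgG, both given on days 0 and 2. These arms have 1 array each from days 3, 5 and 7, with 3 pooled tumours. Untreated tumours gave 4 arrays on days 1, 3, 5 and 7, with 4 pooled tumours each. All 4 arms share the tumour line and the host strain, and no arm was measured more than once on a day. No conditioning of the hosts is named in the sources used here. Each n counts days, so the errors and p-values describe variation across days and not across mice.

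Interferons reach these genes by 2 routes. Type I interferons drive a complex that includes Stat2 and Irf9 and binds the interferon-stimulated response element (ISRE). Interferon gamma acts through the gamma-activated site (GAS) and induces Irf1, which binds ISRE-like sequence. Oligoadenylate synthetases make a messenger that sets off the cutting of RNA in infected cells. Ifit proteins bind viral RNA, Ifitm proteins hinder fusion of viruses with membranes, and Ddx58 (RIG-I) and Ifih1 (MDA5) sense double-stranded RNA.

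Promoter windows of 300 bases from RefSeq (build GRCm38.p6, 250 bases before to 50 after the start) were found for 30 of the 39 genes. The ISRE core GAAANNGAAA or its reverse complement TTTCNNTTTC stood in 15 of the 30, or 50%, against 3.99% of all 27025 genes in the table, and 8 of the 15 held it 2 times. In Bst2, Oas1a, Oas1c and Oas1g the 2 matches overlap and form a continuous stretch. The share of all genes with 2 matches is not given here. The GAS core TTCNNNGAA, which is its own reverse complement, stood in 9 of the 30, or 30%, against 9.55% of all genes. In Bst2 and Ifitm3 the GAS core overlaps an ISRE core. The windows printed here set genes with 2 matches that rose in CTL tumours (Bst2, Ifit3, Oas1a and Ifitm3) beside Ifitm2, which lies near Ifitm3 on chromosome 7 and holds the core but did not pass the test, and Ifi47, which rose and holds neither core in this window. Capitals mark the ISRE core on either strand, and each sequence runs 5′ to 3′ on the strand of its gene.
Bst2: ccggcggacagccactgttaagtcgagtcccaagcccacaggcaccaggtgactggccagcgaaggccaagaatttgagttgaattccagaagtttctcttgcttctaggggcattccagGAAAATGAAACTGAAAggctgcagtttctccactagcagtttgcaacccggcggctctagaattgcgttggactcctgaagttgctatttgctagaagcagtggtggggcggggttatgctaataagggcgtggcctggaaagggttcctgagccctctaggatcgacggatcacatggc
Ifit3: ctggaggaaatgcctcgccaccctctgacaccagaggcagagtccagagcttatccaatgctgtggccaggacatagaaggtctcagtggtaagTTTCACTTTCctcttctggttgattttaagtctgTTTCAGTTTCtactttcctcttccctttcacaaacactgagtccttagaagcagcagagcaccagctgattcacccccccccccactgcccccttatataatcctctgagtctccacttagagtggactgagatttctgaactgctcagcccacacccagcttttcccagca
Oas1a: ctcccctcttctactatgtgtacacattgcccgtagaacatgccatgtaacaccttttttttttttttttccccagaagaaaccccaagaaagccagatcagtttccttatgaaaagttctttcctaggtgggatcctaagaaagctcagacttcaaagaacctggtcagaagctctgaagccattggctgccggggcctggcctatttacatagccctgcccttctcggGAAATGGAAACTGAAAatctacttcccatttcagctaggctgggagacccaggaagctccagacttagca
Ifitm3: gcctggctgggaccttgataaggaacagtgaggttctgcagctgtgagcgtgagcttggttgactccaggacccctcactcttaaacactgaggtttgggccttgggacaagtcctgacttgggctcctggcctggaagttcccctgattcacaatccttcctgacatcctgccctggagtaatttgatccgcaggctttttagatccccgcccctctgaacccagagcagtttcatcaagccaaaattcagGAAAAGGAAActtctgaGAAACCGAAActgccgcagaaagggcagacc
Ifitm2: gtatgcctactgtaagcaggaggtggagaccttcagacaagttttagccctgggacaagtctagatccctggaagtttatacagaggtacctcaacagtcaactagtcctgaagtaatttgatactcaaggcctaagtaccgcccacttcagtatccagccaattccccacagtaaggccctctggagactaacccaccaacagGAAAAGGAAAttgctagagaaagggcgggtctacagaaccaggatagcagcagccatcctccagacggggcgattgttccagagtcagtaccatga
Ifi47: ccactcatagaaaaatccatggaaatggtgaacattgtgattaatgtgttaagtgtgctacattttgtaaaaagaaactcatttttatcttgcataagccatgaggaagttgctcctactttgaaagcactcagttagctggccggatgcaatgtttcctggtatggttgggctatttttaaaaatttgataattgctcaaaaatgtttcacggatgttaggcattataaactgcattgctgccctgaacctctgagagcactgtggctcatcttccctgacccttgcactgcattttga
In Bst2 the 2 overlapping cores start 130 and 124 bases before the transcription start, in Ifit3 they start 156 and 122 bases before it, and in Oas1a 20 and 14 bases before it. The windows lie at chr8:71537423-71537722 (Bst2, minus strand), chr19:34583279-34583578 (Ifit3, plus strand), chr5:120907476-120907775 (Oas1a, minus strand), chr7:141010695-141010994 (Ifitm3, minus strand), chr7:140955912-140956211 (Ifitm2, minus strand) and chr11:49076337-49076636 (Ifi47, plus strand). Among the tested genes with a window, 14 had an ISRE core and 12 of these were called higher in CTL than in untreated tumours, with a median log2 difference of 2.55. Of the 13 tested genes without the core in the window, 10 were called, with a median of 1.97. Over all genes tested, 10.1% were called higher in CTL than in untreated tumours, by the limma test described below. A match is a description of the letters and was not tested as a binding site.

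The arrays had 48.9% to 59.7% of spots well above background and 75th percentiles of the processed signal from 301 to 536. The CTL array of day 5 had the lowest share, 48.9%. Its lowest signal well above background, -3.21 log2 relative to its 75th percentile, was higher than on any other array. The 7 genes of the melanocyte lineage, among them Pmel, Dct and Tyr, had summed levels of 1480 to 1724 in CTL tumours, 1444 to 1658 with anti-IFNg, 1517 to 1553 with IgG and 1297 to 1826 in untreated tumours, in multiples of the array's 75th percentile on days 3, 5 and 7. None of the 7 passed in anti-IFNg against IgG, or in CTL, IgG or anti-IFNg against untreated tumours. Markers of T cells (7 genes) summed to 3.98 to 8.85 in CTL, 1.54 to 2.77 with anti-IFNg, 3.02 to 7.08 with IgG and 0.819 to 1.07 in untreated tumours. The 8 monocyte and macrophage markers summed to 24.7 to 30.5 in CTL, 7.74 to 13.0 with anti-IFNg, 17.9 to 30.9 with IgG and 5.06 to 6.33 in untreated tumours. In CTL against untreated tumours 7 of 7 T cell and 7 of 8 macrophage markers rose, and with anti-IFNg against IgG 4 of 7 and 5 of 8 fell. Over all genes tested, 10.1% rose and 21.4% fell in CTL tumours, and 6.63% rose and 5.93% fell with anti-IFNg. With all 14 arrays the counts were 5 of 7 and 4 of 8 higher, and 0 and 0 lower. In that fit 4.86% of all genes were higher in CTL tumours, and 0.00587% were lower with anti-IFNg. The 4 natural killer cell markers summed to 0.416 to 0.830 in CTL, 0.0681 to 0.123 with anti-IFNg, 0.260 to 0.706 with IgG and 0.0582 to 0.0745 in untreated tumours. Of these, 3 of 3 tested rose in CTL tumours and 3 of 3 fell with anti-IFNg (3 and 0 with all 14 arrays), and none was well above background on any untreated array. Of the 4 tested dendritic cell markers Itgax rose in CTL tumours, by 2.28 ± 0.27 log2 (adjusted p = 0.00111), and none fell with anti-IFNg. Of the 3 tested plasmacytoid dendritic cell markers 0 rose in CTL tumours and 1 fell with anti-IFNg (0 and 0 with all 14 arrays). That was Ccr9, well above background on 1 of 3 anti-IFNg arrays. The 4 neutrophil markers summed to 1.29 to 6.51 in CTL, 0.257 to 0.670 with anti-IFNg, 1.26 to 50.1 with IgG and 0.281 to 0.994 in untreated tumours. Among them 1 of 4 rose in CTL tumours and 2 of 4 fell with anti-IFNg (1 and 0 with all 14 arrays). Spib, Ncr1, Clec9a and Cd209a of these lists were not well above background on any array. Keratinocyte markers rose in CTL tumours, 2 of 2 (2 with all 14 arrays). With IgG against untreated tumours 0 of 2 rose, where 7.47% of all genes did. Of 5 endothelial markers 2 fell in CTL tumours and 3 rose with anti-IFNg (1 and 0 with all 14 arrays). Among 3 tested fibroblast and 3 tested B cell markers, 1 of each rose in CTL tumours, and 1 B cell marker fell with anti-IFNg (0 with all 14 arrays). T cell, macrophage and natural killer cell markers moved in the same direction as the antiviral genes. The part of any marker list in the results was not tested. In pooled whole tumours, fewer cells of a type and less RNA per cell cannot be told apart.

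The first comparison set CTL against untreated tumours over days 3, 5 and 7. Of the 35 genes tested, 29 rose and none fell, while 10.1% of all genes tested rose and 21.4% fell (limma, Benjamini-Hochberg adjusted p under 0.05). Every CTL array lay above every untreated array for 31 of the 35, against 12.3% of all genes. The median log2 difference of the 35 was 2.54, beside -0.10 over all genes. Among the 30 well above background on all 14 arrays, which could not have entered only through the arm where they were high, 25 rose, against 9.76% of the 13341 genes measured on all arrays. The count depended on the fit: with all 14 arrays and 1 CTL effect for all 4 days, 20 of 35 rose, against 4.86% of all genes. Leaving out day 3, 5 or 7 gave 18, 9 and 28. By family, the fit of all 14 arrays called 7 of 9 synthetases, 1 of 3 Ifit, 3 of 6 Ifitm and 3 of 3 p200 genes higher. It called 2 of 3 sensors, 2 of 6 single effectors and 2 of 5 other Ifi genes higher. The number of all genes called also varied widely among these fits, over a range given in the closing section.

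Of the oligoadenylate synthetases 9 of 9 tested members were higher in CTL tumours, by 1.14 to 5.13 log2. Oasl2, a synthetase-like protein with ubiquitin-like domains, had log2 signals relative to the array's 75th percentile of 3.80, 2.27 and 1.02 in CTL tumours on days 3, 5 and 7, of -1.07, -1.79 and -3.13 with anti-IFNg, of 4.10, 2.93 and 1.34 with IgG, and of -2.88, -2.82 and -2.61 in untreated tumours. The CTL and IgG arrays lay far above the other 6 on every day, and the anti-IFNg array fell below the untreated one on day 7. Its CTL minus untreated difference was 5.13 ± 0.52 log2 (SE, n = 3 days), or 35.1-fold, with a limma adjusted p of 0.000543. Oas3, the longest of the synthetases, had -0.53, -1.91 and -2.30 in CTL tumours, -3.51, -3.42 and -4.27 with anti-IFNg, -0.44, -1.06 and -1.98 with IgG, and -3.57, -4.35 and -4.49 in untreated tumours. Its difference was 2.56 ± 0.26 log2, or 5.89-fold (adjusted p = 0.000532), and CTL and untreated arrays did not overlap, although the untreated array of day 7 was not well above background.

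Oas1b had the largest p of its family. Its probe was well above background on 1 CTL array, on 0 anti-IFNg arrays, on 2 IgG arrays and on 0 untreated arrays. The fitted difference of 2.12 ± 0.47 log2 (adjusted p = 0.0127) therefore has no bound above 1-fold, since the CTL mean of -4.40 did not exceed the detection floor of -4.39 on the untreated arrays. Many laboratory mouse strains carry a truncated Oas1b, a gene that restricts flaviviruses in other mice. The remaining members had differences of 3.48 ± 0.48 (Oas2), 3.44 ± 0.36 (Oasl1), 2.60 ± 0.31 (Oas1a), 2.41 ± 0.30 (Oas1f), 1.22 ± 0.16 (Oas1c) and 1.14 ± 0.22 (Oas1e). Oas1 genes are close paralogs in a cluster on chromosome 5, and whether their probes cross-hybridise was not tested.

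Of the Ifit genes 3 of 3 rose (1 of 3 with all 14 arrays). Ifit3 had 6.02, 4.58 and 3.00 in CTL tumours on days 3, 5 and 7, 1.48, 1.17 and 0.31 with anti-IFNg, 6.13, 5.07 and 3.38 with IgG, and 0.37, 0.57 and 0.56 in untreated tumours. Every CTL and IgG array was above every other, and the difference from untreated tumours was 4.04 ± 0.53 log2, or 16.4-fold (adjusted p = 0.00174). Ifit1, which binds the 5′ end of viral RNA, had 1.25, -0.37 and -1.54 in CTL tumours, -0.20, -2.62 and -2.39 with anti-IFNg, 1.23, 0.41 and -0.94 with IgG, and -2.76, -3.40 and -2.50 in untreated tumours. Here the anti-IFNg array of day 3 lay above the CTL arrays of days 5 and 7, so those groups overlapped. Its CTL difference was 2.67 ± 0.56 log2 (adjusted p = 0.0105). Ifit2 had 1.83, -0.13 and -0.55 in CTL tumours against -1.01, -1.07 and -1.76 in untreated tumours, a difference of 1.67 ± 0.46 log2 (adjusted p = 0.0281).

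**Figure D1:**
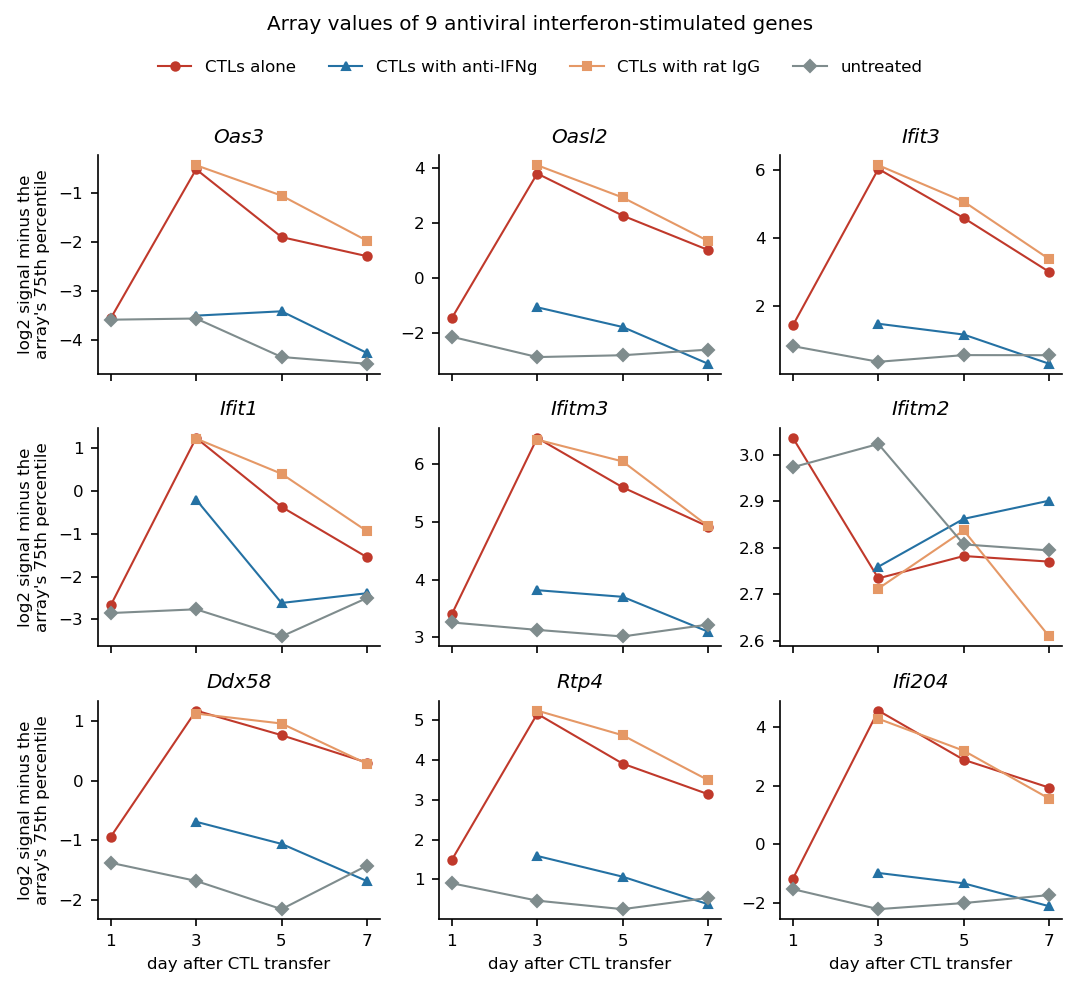
Log2 signal minus the array's 75th percentile (vertical axis) by day after CTL transfer (horizontal axis) for 9 genes, with 1 point per array and a line for each of the 4 arms; each panel has its own vertical scale. For Oasl2 the CTL array of day 3 stood at 3.80 and that of day 1 at -1.46, while the anti-IFNg arrays ran from -1.07 to -3.13; Ifitm2 spans less than 1 log2 unit in all.

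The Ifitm family was divided, with 4 of 6 higher. Ifitm3, which blocks entry of enveloped viruses in endosomes, had 6.46, 5.60 and 4.92 in CTL tumours, 3.82, 3.70 and 3.10 with anti-IFNg, 6.43, 6.05 and 4.93 with IgG, and 3.13, 3.01 and 3.22 in untreated tumours. The difference was 2.54 ± 0.30 log2, or 5.82-fold (adjusted p = 0.00107), without overlap of CTL and untreated arrays. Ifitm7, a less studied relative, had 5.79, 4.94 and 4.33 in CTL tumours against 3.17, 3.01 and 2.98 in untreated tumours, also without overlap (1.97 ± 0.26 log2, adjusted p = 0.00168). Ifitm1 differed by 1.61 ± 0.35 log2 and Ifitm6, which was well above background on 1 of 3 untreated arrays, by 1.96 ± 0.43. Ifitm2, by contrast, had 2.73, 2.78 and 2.77 in CTL tumours, 2.76, 2.86 and 2.90 with anti-IFNg, 2.71, 2.84 and 2.61 with IgG, and 3.02, 2.81 and 2.79 in untreated tumours. All 12 values lay close together, and the difference of -0.11 ± 0.10 log2 did not pass (adjusted p = 0.436) and changed sign under quantile normalization. Ifitm5, a gene of bone-forming cells, had 0.80 ± 0.36 log2 and did not pass either (adjusted p = 0.129).

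Of the RNA sensors, Ddx58 and Ifih1 rose. Ddx58 had 1.18, 0.77 and 0.30 in CTL tumours, -0.69, -1.06 and -1.69 with anti-IFNg, 1.13, 0.96 and 0.28 with IgG, and -1.69, -2.16 and -1.43 in untreated tumours, and its difference was 2.51 ± 0.27 log2, or 5.69-fold (adjusted p = 0.000698). Ifih1 had 1.61, 0.33 and -0.31 in CTL tumours against -1.65, -1.72 and -1.61 in untreated tumours, a difference of 2.20 ± 0.36 log2 (adjusted p = 0.00426). For both genes the 3 CTL arrays lay above the 3 untreated ones. Eif2ak2 encodes PKR, the kinase that stops translation when it meets double-stranded RNA. It had 1.99, 0.66 and 0.38 in CTL tumours against 0.08, 0.15 and -0.01 in untreated tumours. The groups did not overlap, but the difference of 0.94 ± 0.32 log2 missed the threshold (adjusted p = 0.0591). The Dhx58 probe, for the third receptor of this type (LGP2), differed by 4.00 ± 0.55 log2 (adjusted p = 0.00199).

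Among the single effectors 4 of 6 rose. Rtp4, a chaperone that also restricts viruses, had 5.15, 3.90 and 3.14 in CTL tumours, 1.59, 1.07 and 0.38 with anti-IFNg, 5.23, 4.61 and 3.49 with IgG, and 0.47, 0.25 and 0.54 in untreated tumours. At 3.65 ± 0.35 log2, or 12.5-fold, its adjusted p of 0.000432 was the smallest of the 35. Bst2 (tetherin), which holds budding virus at the cell surface, had 8.06, 7.37 and 6.44 in CTL tumours against 4.53, 4.68 and 4.60 in untreated tumours, a difference of 2.69 ± 0.30 log2 (adjusted p = 0.000841). Both genes were higher on every CTL array than on any untreated array. Mx2 rose by 2.96 ± 0.59 log2 and Rsad2 (viperin) by 1.74 ± 0.45. Mx1, a GTPase that blocks influenza viruses and is defective in many inbred strains, had 0.47, -2.51 and -3.59 in CTL tumours against -6.51, -4.33 and -4.76 in untreated tumours. It did not pass (3.32 ± 1.16 log2, adjusted p = 0.0598), and 1 of the 3 untreated arrays was well above background. Isg20, an RNA exonuclease, had 2.82, 0.99 and 0.34 in CTL tumours against 0.72, 1.10 and 1.17 in untreated tumours. It was above untreated on day 3 and below it on days 5 and 7, and the mean of 0.39 ± 0.63 did not pass (adjusted p = 0.660); without day 3 it was -0.46.

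Genes of the p200 family, a cluster on chromosome 1 that includes DNA sensors, had the largest median difference of the families, and 3 of 3 rose. Ifi204 had 4.55, 2.88 and 1.93 in CTL tumours, -0.98, -1.33 and -2.11 with anti-IFNg, 4.27, 3.18 and 1.55 with IgG, and -2.21, -2.00 and -1.73 in untreated tumours. That is 5.10 ± 0.55 log2, or 34.2-fold (adjusted p = 0.000714), with no overlap of CTL and untreated arrays. Ifi205 had 5.56, 4.21 and 3.05 in CTL tumours against -1.15, -0.91 and 0.12 in untreated tumours (4.92 ± 0.66 log2, adjusted p = 0.00189). Ifi203 had 3.43, 1.72 and 0.73 in CTL tumours against -3.26, -2.79 and -2.52 in untreated tumours (4.81 ± 0.66 log2, adjusted p = 0.00199). In both genes all CTL arrays stood above all untreated ones. These genes are near-identical in parts, so their probes may not be independent. The remaining Ifi genes ranged widely. Ifi44 had 1.07, -0.97 and -2.33 in CTL tumours and stood at background on all 3 untreated arrays, so that its rise was at least 12.6-fold (5.23 ± 0.90 log2 as fitted, adjusted p = 0.00510; means of -0.74 in CTL and -5.97 in untreated tumours). A bound sets the CTL mean against the higher of the probe's own signal and the lowest signal well above background on each array. Ifi47, an immunity-related GTPase, had 5.44, 3.52 and 2.57 in CTL tumours against -1.80, -0.21 and -1.25 in untreated tumours, 4.93 ± 0.68 log2 higher (adjusted p = 0.00200). Ifi35 had 4.49, 3.14 and 2.66 in CTL tumours against 1.38, 1.23 and 1.10 in untreated tumours (2.19 ± 0.33 log2, adjusted p = 0.00315). Neither gene's groups overlapped, and Ifi27 (now Ifi27l2a) rose by 2.62 ± 0.50 log2. Ifi30 (GILT), a lysosomal thiol reductase of antigen processing, was the exception. It had 2.08, 2.18 and 2.14 in CTL tumours against 2.36, 2.52 and 2.29 in untreated tumours, slightly below on every day, and the difference did not pass (-0.26 ± 0.09 log2, adjusted p = 0.0704).

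The second comparison asked how far these levels depended on interferon gamma, by setting CTLs with anti-IFNg against CTLs with IgG. Of the 35 genes, 28 fell and none rose, while 5.93% of all genes fell and 6.63% rose. The median difference was -2.31 log2, beside 0.06 over all genes. Every anti-IFNg array lay below every IgG array for 29 of the 35, against 14.9% of all genes. Among the 30 measured on all arrays 24 fell, against 5.13% of such genes. These calls rest on the fit of days 3, 5 and 7: with all 14 arrays 0 of 35 passed, 2 genes passed in the whole table (0.0117%, of which 1, or 0.00587%, was lower), and 32 of the 35 had an unadjusted p under 0.05, as 26.5% of all genes did. Members then had adjusted p-values from 0.0551 upward. Their differences were the same in both fits, with a median of -2.31 log2, and only the errors and p-values changed. Without day 5 the count of members called was also 0, and without days 3 and 7 it was 19 and 27. Calls over all genes varied widely among these fits too, over a range given in the closing section.

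All 9 tested synthetases fell with the block. Oasl2 changed by -4.79 ± 0.52 log2, a ratio of 0.0362 (adjusted p = 0.00198), and Oas3 by -2.57 ± 0.26 (adjusted p = 0.00157), the smallest adjusted p of the 35. Oas1e had the smallest decrease, at -0.82 ± 0.22 log2. Oas1b, well above background on 2 of 3 IgG arrays, was at least 1.40-fold lower with anti-IFNg (means of -5.70 with anti-IFNg and -3.85 with IgG, adjusted p = 0.0383). Ifit3 changed by -3.87 ± 0.53 log2 (adjusted p = 0.00457) and Ifit2 by -1.70 ± 0.46 (adjusted p = 0.0480). Ifit1, at -1.97 ± 0.56, missed the threshold (adjusted p = 0.0552) and passed it under quantile normalization and scaling to the median.

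Of the Ifitm genes 4 of 6 fell: Ifitm3 changed by -2.26 ± 0.30 log2 (adjusted p = 0.00404), Ifitm7 by -1.79 ± 0.26 and Ifitm1 by -2.29 ± 0.35. Ifitm6 was not well above background on any anti-IFNg array, so its decrease was at least 4.58-fold (means of -4.69 with anti-IFNg and -2.14 with IgG, adjusted p = 0.00897). Ifitm2 had 0.12 ± 0.10 log2 (adjusted p = 0.465) and Ifitm5 had -0.25 ± 0.36 (adjusted p = 0.680). All 3 sensors fell, with differences of -2.31 ± 0.36 for Ifih1, -1.94 ± 0.27 for Ddx58 and -1.27 ± 0.32 log2 for Eif2ak2 (adjusted p = 0.0397). Eif2ak2 had 0.31, 0.37 and 0.20 with anti-IFNg against 2.37, 1.18 and 1.15 with IgG, without overlap. The Dhx58 probe changed by -3.86 ± 0.55 log2 (adjusted p = 0.00513).

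Of the single effectors 3 of 6 fell: Rtp4 changed by -3.43 ± 0.35 log2 (adjusted p = 0.00171), Mx2 by -3.10 ± 0.59 and Bst2 by -2.21 ± 0.30. Rsad2 (-1.63 ± 0.45, adjusted p = 0.0505), Isg20 (-1.94 ± 0.63, adjusted p = 0.0815) and Mx1 (-2.55 ± 1.16, adjusted p = 0.185) were lower with anti-IFNg on 3 of 3 days and did not pass. All 3 p200 genes fell, by differences of -4.30 to -4.64 log2. Ifi205 had 0.09, -0.45 and -1.16 with anti-IFNg against 5.44, 4.29 and 2.66 with IgG (-4.64 ± 0.66 log2, adjusted p = 0.00531). Ifi44 was at least 17.8-fold lower with anti-IFNg (-5.50 ± 0.90 log2 as fitted, means of -5.67 with anti-IFNg and -0.17 with IgG, adjusted p = 0.00813). Ifi47 changed by -4.59 ± 0.68, Ifi27 by -2.87 ± 0.50 and Ifi35 by -2.11 ± 0.33 log2. Ifi30 again differed in the other direction without passing, at 2.40, 2.66 and 2.50 with anti-IFNg against 1.99, 2.31 and 2.28 with IgG (0.33 ± 0.09 log2, adjusted p = 0.0593). Where a gene had further probes detected on at least 3 arrays (17 probes of 13 genes), 17 of 17 had the sign of the probe used in both comparisons. Part of this was fixed in advance, since a dim probe can pass that filter only through the arms where it is high. The further probes of Ifih1 and Mx1, for example, were well above background on 3 arrays. Those of Ifi27, Ifit2, Ifitm2, Isg20 and Rsad2 were so on all 14. The share of such agreement over all genes is not given here.

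**Figure D2:**
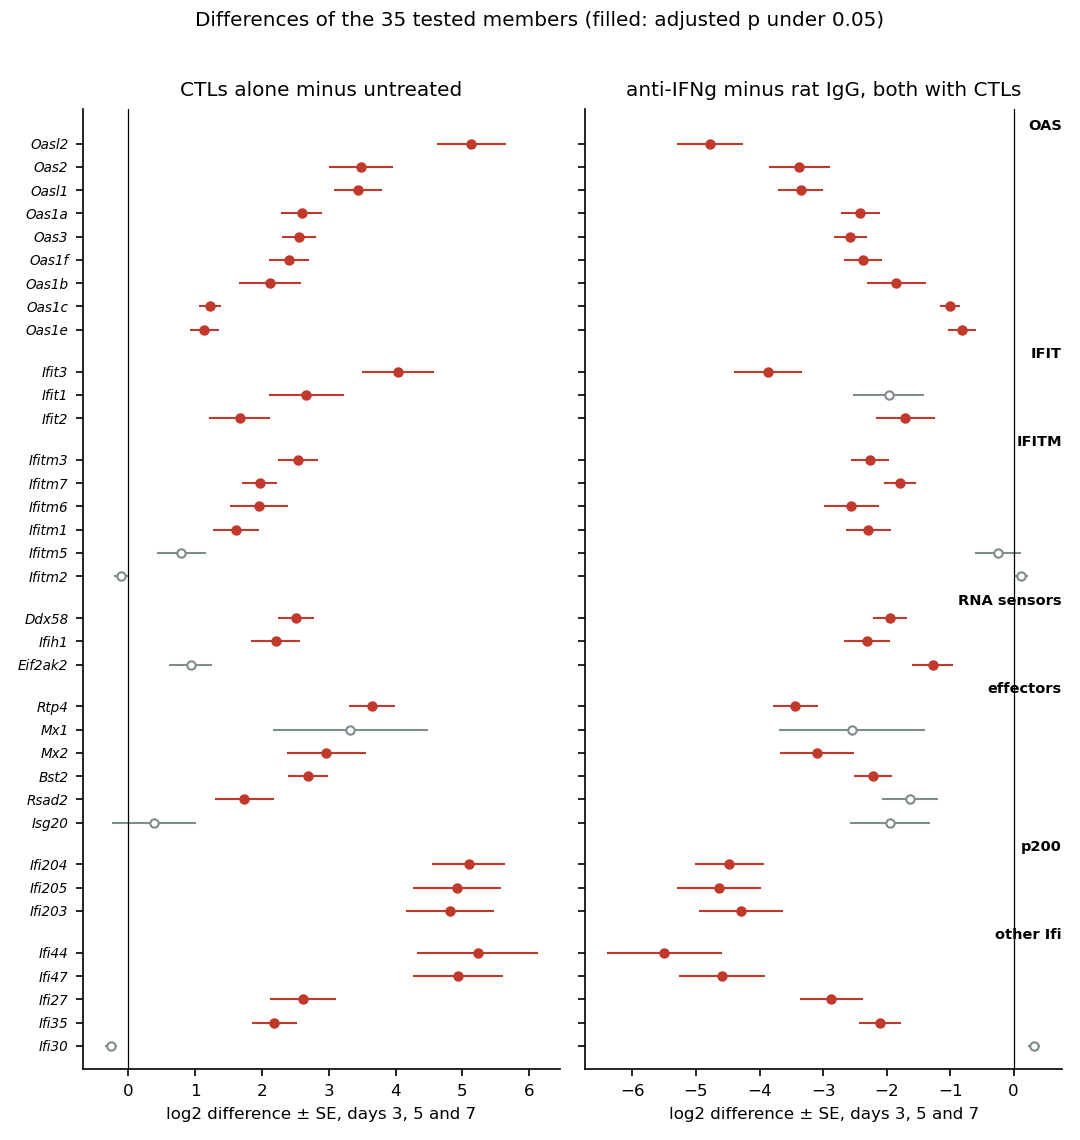
Log2 difference with its standard error (horizontal axis, n = 3 days) of the 35 tested genes by family (rows), for CTLs alone minus untreated tumours at left and anti-IFNg minus rat IgG at right; filled points passed an adjusted p of 0.05. At left 29 points are filled, all right of 0, and at right 28 are filled, all left of 0, while Ifitm2, Ifitm5, Ifi30, Isg20 and Mx1 are open on both sides.

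The next comparisons set both antibody arms against the same untreated arrays, so they share those arrays with each other and with the first comparison. With anti-IFNg, 0 of 35 were called and 0 of 35 had an unadjusted p under 0.05, beside 26 genes of the whole table called higher (0.153%) and 6.90% with an unadjusted p under 0.05. With IgG, 30 of 35 genes were higher than in untreated tumours, against 7.47% of all genes (26 of 35 with all 14 arrays, against 4.51%). Among the 30 measured on all arrays 0 were called with anti-IFNg and 26 with IgG, against 0.0899% and 7.08% of such genes. The median of the 35 was 0.31 log2 with anti-IFNg and 2.68 log2 with IgG. By family, the medians with anti-IFNg and with IgG were 0.40 and 2.90 for the synthetases, 0.49 and 3.12 for Ifit genes, 0.07 and 1.99 for Ifitm genes, 0.41 and 2.55 for the sensors, 0.29 and 2.94 for the single effectors and 0.51 and 4.87 for the p200 genes. With anti-IFNg, Ifit1 stood at 1.16 ± 0.56 log2 (adjusted p = 0.762) and Mx1, at background on 2 of 3 untreated arrays, at 1.12 ± 1.16 as fitted (adjusted p = 0.968), and lowest was Isg20 at -1.07 ± 0.63 (adjusted p = 0.827). A p that misses the threshold does not show that these levels equalled those of untreated tumours: 30 of 35 differences were above 0. Over the same arrays, 2 of 7 T cell markers and 1 of 4 dendritic cell markers were called with anti-IFNg against untreated tumours, and 0 of either with all 14 arrays. Cd8a, at background on all 3 untreated arrays, was at least 4.81-fold higher (means of -2.13 with anti-IFNg and -6.16 in untreated tumours, adjusted p = 0.00286), and Cd3d, well above background on 1 of 3 untreated arrays, differed by 4.28 ± 0.53 log2 (adjusted p = 0.0362). Itgax differed by 2.07 ± 0.27 log2 (adjusted p = 0.0468). Between CTLs with IgG and CTLs alone, limma called 0 of 35, with 0 at an unadjusted p under 0.05 (18.8% of all genes) and a median of 0.31 log2, beside 2 genes called in all (0.0117%).

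**Figure D3:**
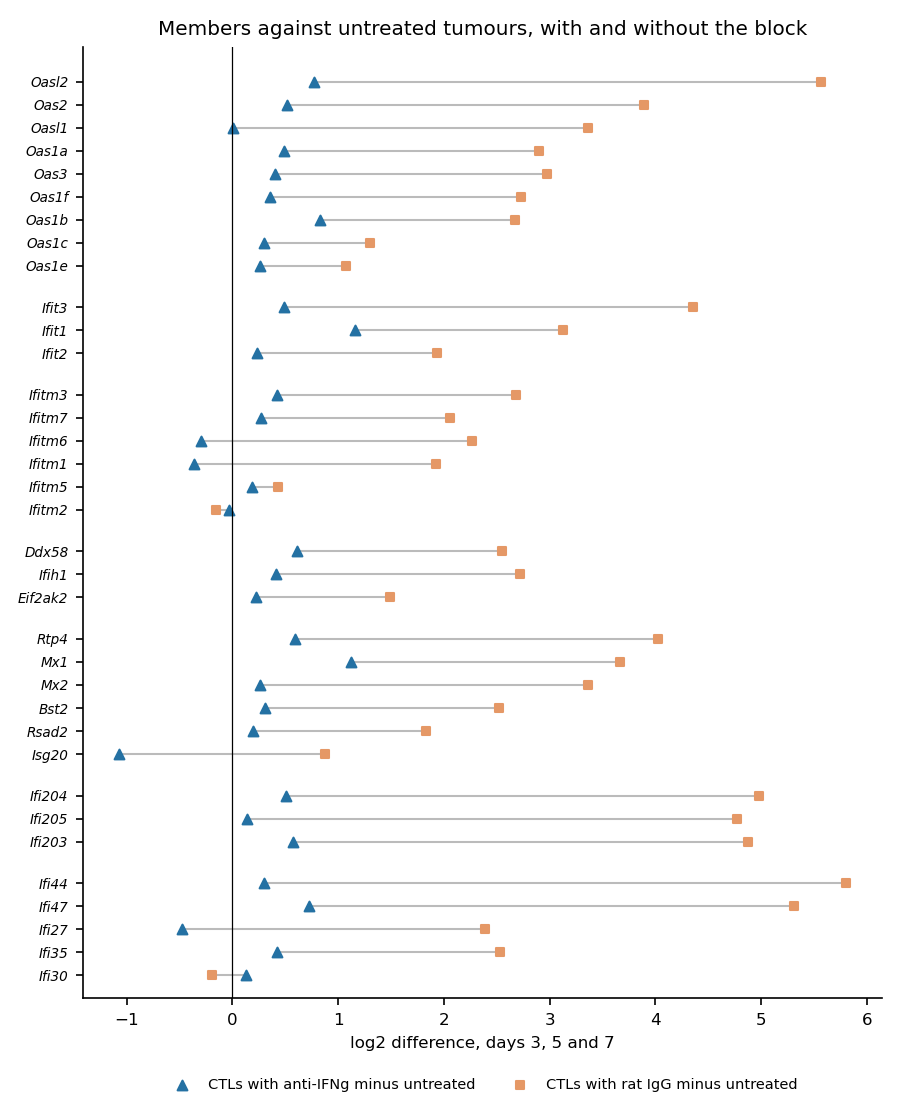
Log2 difference from untreated tumours over days 3, 5 and 7 (horizontal axis) for each tested gene (rows, by family), with triangles for CTLs with anti-IFNg and squares for CTLs with rat IgG; both use the same untreated arrays. Triangles lie between -1.07 and 1.16 and squares between -0.20 and 5.80, the highest being Ifi44 as fitted.

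The time course was described by single arrays, without a test for any one day. On day 1 the median CTL minus untreated difference of the 35 was 0.10 log2, with 25 of 35 above 0 against 50.4% of all genes, and 1 gene, Ifi47 at 1.41 log2 (0.87 in CTL and -0.54 in untreated tumours), was at least 2-fold higher, against 1.95% of all genes. Oasl2 (0.68), Ifit3 (0.61), Rtp4 (0.58) and Ifi203 (0.54) came next, and Ifi44 was lowest at -0.64, from a probe below background in both. The medians on days 3, 5 and 7 were 3.38, 2.44 and 1.43 log2. Ifi47, well above background on all of these arrays, differed by 7.24 log2 on day 3, by 3.73 on day 5 and by 3.82 on day 7. CTL levels ran in the order day 3, day 5, day 7, highest first, for 29 of 35 genes (16.9% of all genes), and so did IgG levels for 28 of 35 (14.8%), anti-IFNg levels for 22 of 35 (17.9%) and untreated levels for 5 of 35 (15.4%).

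The change with time was tested by 2 terms. The CTL effect of days 3 to 7 minus that of day 1 was above 0 for 33 of 35 genes with a median of 2.40 log2. None of the 35 passed, with Oasl1 closest (3.64 ± 0.71 log2, adjusted p = 0.0643), although 23 of 35 had an unadjusted p under 0.05 (14.4% of all genes) and 173 genes passed in the whole table, 142 of them higher (0.834%). This fit takes the spread of the single day 1 pair from the later days. The change of the CTL effect per day over days 3, 5 and 7, a measure added after the data were seen, had a median of -0.49 log2 per day. No gene in the table passed, and 26 of 35 had an unadjusted p under 0.05 (9.06% of all genes). Ifit3 had -0.80 ± 0.07 log2 per day (adjusted p = 0.112).

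The change per day of the difference between anti-IFNg and IgG had a median of 0.20 log2 per day. None of the 35 passed (smallest adjusted p = 0.481), and 12 of 35 had an unadjusted p under 0.05 (7.24% of all genes). The anti-IFNg minus untreated median was 0.62, 0.52 and -0.20 log2 on days 3, 5 and 7, beside 3.30, 2.97 and 1.81 log2 for IgG minus untreated. At least 2-fold above untreated with anti-IFNg were 12 of 35 genes on day 3 (3.34% of all genes), 4 of 35 on day 5 (3.24%) and 0 of 35 on day 7 (1.20%). On day 3, Ifit1 had -0.20 with anti-IFNg against -2.76 in untreated tumours, a difference of 2.57 log2 or 5.93-fold, and 0.78 and 0.11 log2 on days 5 and 7. Mx1 had -2.44 with anti-IFNg, well above background, against -6.51 in untreated tumours, where it was not. Others on day 3 were Ifi47 (1.82 log2), Oasl2 (1.81), Oas2 (1.56), Ifi205 (1.24), Ifi204 (1.23), Rtp4 (1.12), Ifit3 (1.12) and Ifitm5 (1.06), besides Ifi44 and Oas1b, which were below background in both arms. These are single arrays. The summed T cell markers (1.54 to 2.77 with anti-IFNg and 0.819 to 1.07 in untreated tumours) and macrophage markers did not overlap between these arms. The share of all genes without overlap is not given here. Of single markers 2 of 7 and 0 of 8 were called (0 and 0 with all 14 arrays), beside 0.153% of all genes called higher. Their part in the day 3 values was not tested.

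**Figure D4:**
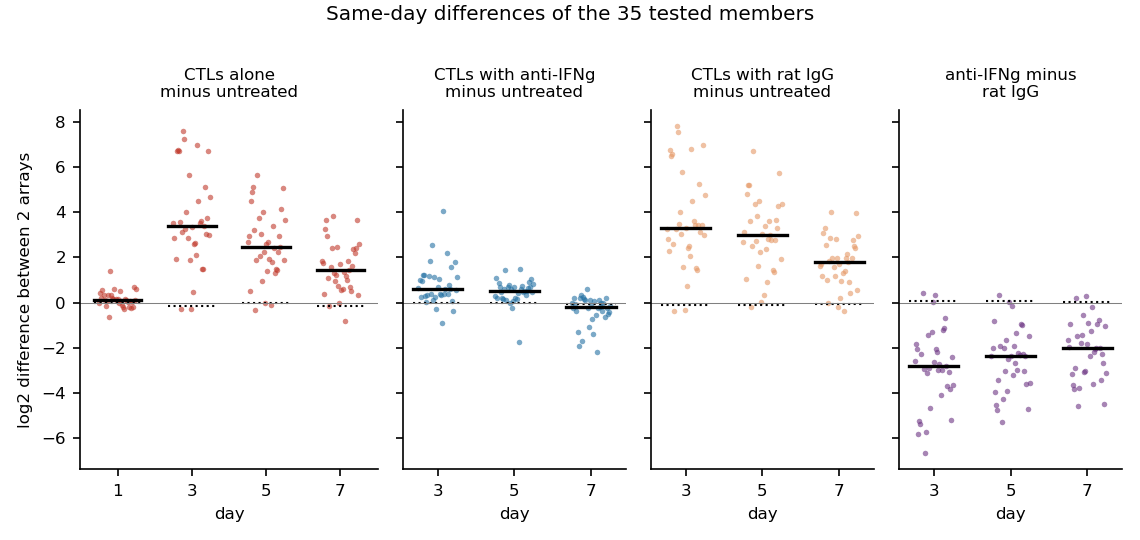
Log2 difference between 2 arrays of the same day (vertical axis) by day (horizontal axis), with 1 point per tested gene, a solid bar at the median of the 35 and a dotted bar at the median of all genes. The CTL minus untreated median was 0.10 on day 1 and 3.38, 2.44 and 1.43 on days 3, 5 and 7, while that of anti-IFNg minus untreated was 0.62, 0.52 and -0.20.

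The genes that act upstream of the antiviral genes were taken from lists of the pathway. Beside the counts that follow, 10.1% of all genes tested rose in CTL tumours, and 5.93% fell and 6.63% rose with anti-IFNg. Of the 14 interferon genes on the array, 6 were not well above background on any array, among them Ifnb1, Ifna2 and Ifna4, and 1 of the 7 tested rose in CTL tumours. That was Ifng, well above background on 1 of 3 untreated arrays, at 5.66 ± 0.56 log2 (adjusted p = 0.000498). With anti-IFNg, Ifng was at -1.79 ± 0.56 log2 against IgG (adjusted p = 0.0747) and at 3.58 ± 0.56 against untreated tumours (adjusted p = 0.0901). The 4 tested alpha interferon genes (Ifna1, Ifna9, Ifna12 and Ifna13), Ifnab and Ifnz had CTL minus untreated differences of 0.02 to 0.50 log2, and none passed.

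Receptors and kinases moved little: 2 of 9 rose in CTL tumours, Ifnar2 by 0.75 ± 0.22 and Jak1 by 0.46 ± 0.10 log2, and with anti-IFNg 1 of 9 passed, Ifnar1, higher by 0.56 ± 0.12. Transcription factors moved with the antiviral genes, 8 of 9 higher in CTL tumours and 8 of 9 lower with anti-IFNg. Irf7, the master factor of type I interferon induction, differed by 4.41 ± 0.55 log2 in CTL tumours and by -4.08 ± 0.55 with anti-IFNg. Of the ISRE-binding complex, Stat2 had 3.13 ± 0.48 and -2.66 ± 0.48, and Irf9 had 1.81 ± 0.17 and -1.66 ± 0.17. Irf1 had 3.87 ± 0.51 and -3.62 ± 0.51. Irf3, which is activated by phosphorylation, was the exception at -0.11 ± 0.08 and 0.04 ± 0.08. Of the 5 feedback inhibitors 4 rose and 4 fell in turn, with Usp18, which removes Isg15 and silences the type I receptor, at 4.16 ± 0.37 and -3.65 ± 0.37, and Socs1 at 4.28 ± 0.59 and -3.87 ± 0.59.

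Of the 11 tested sensing genes 4 rose in CTL tumours and 3 fell with anti-IFNg. Zbp1, a sensor of Z-form nucleic acid, had 6.47 ± 0.81 and -6.23 ± 0.81 log2, whereas the adaptor Mavs (-0.23 ± 0.10 and 0.12 ± 0.10), through which Ddx58 and Ifih1 signal, and the kinase Tbk1 (0.09 ± 0.20 and -0.25 ± 0.20) did not pass in either comparison. Of 19 further antiviral effectors 17 rose in CTL tumours and 16 fell with anti-IFNg, with medians of 2.36 and -2.14 log2. Isg15, the ubiquitin-like modifier, had 3.19 ± 0.54 and -3.40 ± 0.54 log2. Against untreated tumours with anti-IFNg, none of the tested genes of these 6 lists was called. Only 0.153% of all genes were called higher there, so a count of none is near the share over all genes. With all 14 arrays, 0 of 9 receptors and kinases, 7 of 9 transcription factors, 3 of 5 feedback inhibitors, 3 of 11 sensing genes and 12 of 19 effectors rose in CTL tumours, and with anti-IFNg none of these passed in either direction. In that fit 4.86% of all genes rose in CTL tumours, and 0.0117% passed with anti-IFNg.

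**Figure D5:**
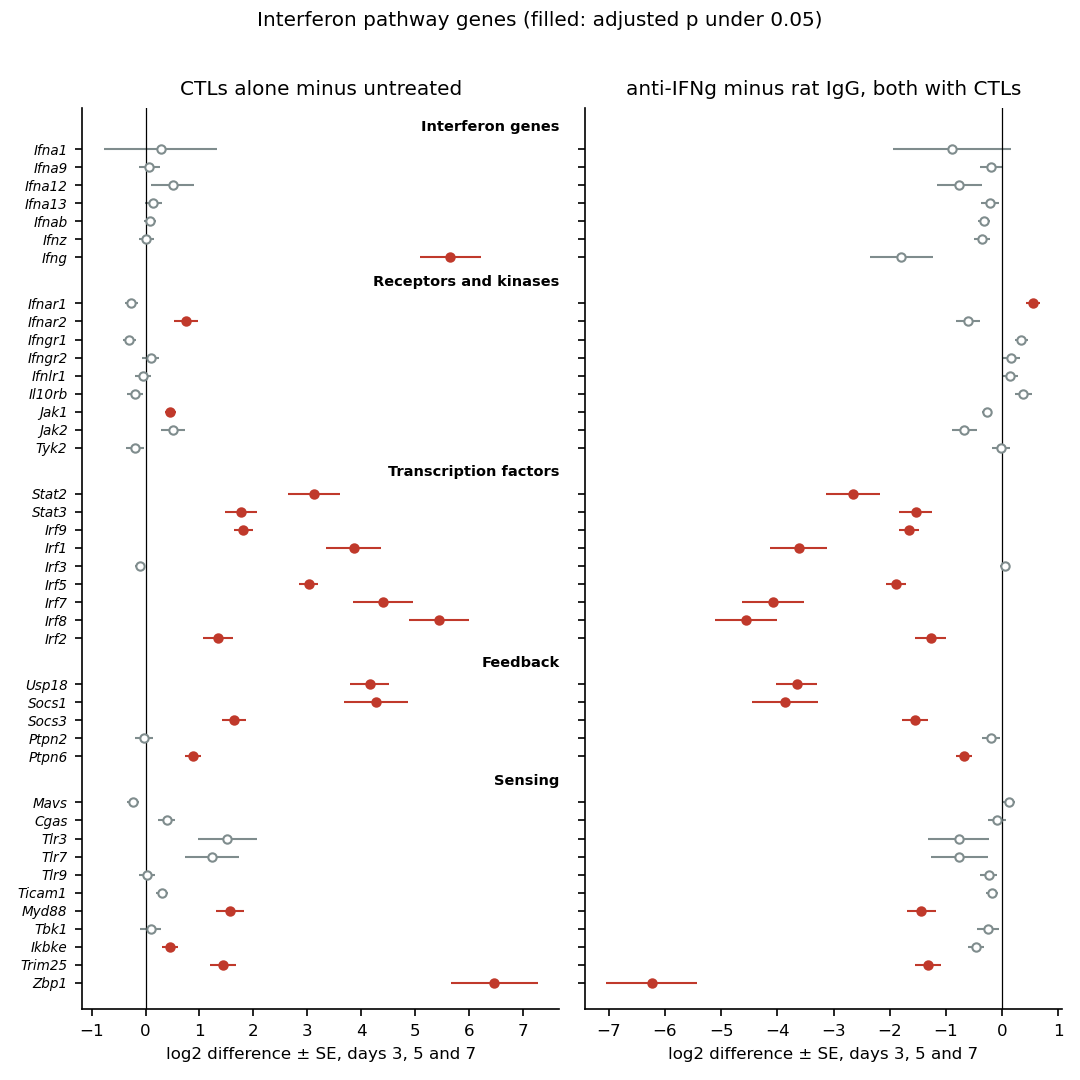
Log2 difference with its standard error (horizontal axis, n = 3 days) of tested interferon pathway genes by list (rows), for CTLs alone minus untreated tumours at left and anti-IFNg minus rat IgG at right; filled points passed an adjusted p of 0.05. Among interferon genes the only filled point is Ifng at 5.66, at left, and Irf3, Mavs and Tbk1 lie near 0 on both sides.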

How the data were processed

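RNA of 3 or 4 tumours was pooled per array and hybridised to one-colour (Cy3) Agilent arrays, read with Feature Extraction 9.5 (per the submitters' processing notes; 9.5.3.1 per the file headers). The authors' scanner files give linear spot intensity, and the processed signal used here had its background subtracted by that program, per the file headers. A deposited log2 table had r = 1 with the log2 processed signal and differed from it by a constant per array, with its 75th percentile near 0.

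Each value is log2 of the processed signal minus the 75th percentile over 43379 non-control spots. Outlier spots were dropped and spots of a probe averaged. Probes well above background on at least 3 of 14 arrays were kept, 1 per gene, the one with the highest mean, and no member was saturated. Names came from the files, and 24367 probes matched RefSeq by accession. Promoter windows are in GRCm38.p6.

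Differences were fitted across all genes with limma 3.58.1 (R 4.3.3, lmFit, eBayes; two-sided, Benjamini-Hochberg adjustment, threshold 0.05), with arm and day as terms, on the 12 arrays of days 3, 5 and 7. Day equals slide, so the day term is a paired block given by the labels and files. Each arm kept 1 array position, and arm and position cannot be told apart. The number of arrays limits the precision. The fit was tested on simulated data. Genes given array by array were, per family, the 2 with the smallest and the 1 with the largest p between CTL and untreated tumours, besides those on the other side of 0 from their family. Further genes given by day were chosen after their values were seen. Members, lists, fit and rule were chosen with earlier results of these data known. Some genes of the pathway lists are not reported here, and the lists' counts leave them out. Alternatives were other backgrounds, scalings, filters, probe rules, the authors' table, all 14 arrays, 2 arms alone, no day term and leaving out a day.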

Additional observations from a re-analysis of the deposited data

Results flagged for a closer look

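In 2 genes 1 array stood far from the other 3 of its arm. For Ifit2 in untreated tumours the gap of the outlying array to its nearest neighbour was 0.86 of the arm's range, from values of -1.12, -1.01, -1.07 and -1.76 log2 on days 1, 3, 5 and 7, with day 7 lowest. For Ifitm2 in CTL tumours the ratio was 0.843, from 3.04, 2.73, 2.78 and 2.77 log2, with day 1 highest, although all 4 values lie within a narrow range. Chance flags about 1 in 20 such groups.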

How the results depend on the processing

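The 42 differences of the 21 genes named by the rule kept their sign under the alternatives run, except 2 in CTL against untreated tumours: Ifitm2 had 0.011 under quantile normalization, and Isg20 ranged from -0.46 to 0.992 without a day in turn, lowest without day 3. Of 544 values recomputed, 459 kept direction and side of the threshold, 77 no longer passed, 6 newly passed and 2 changed sign. Under the authors' deposited table and under the mean of all probes of a gene, no count moved by over 1.5 times.

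With all 14 arrays and 1 CTL effect, anti-IFNg against IgG gave 0 members and 2 genes, against 28 and 2139 with 12 arrays. In the same fit CTL against untreated tumours gave 1839 genes in place of 5362, IgG against untreated tumours 1707 in place of 3176, anti-IFNg against untreated tumours 0 in place of 27 and IgG against CTLs alone 4 in place of 2. With only the arrays of the arms compared, CTL against untreated tumours gave 16 members and 837 genes, anti-IFNg against IgG 912 genes, IgG against untreated 1058, anti-IFNg against untreated 0, IgG against CTLs alone 0, and days 3 to 7 against day 1 gave 0. Without the day block (no paired term), anti-IFNg against untreated gave 0 genes, IgG against CTLs alone 4 and the day 1 term 4. No other count changed by over 1.5 times without the block.

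Without a day in turn, members called ranged from 9 to 28 for CTL against untreated tumours (661 to 5111 genes), from 0 to 27 for anti-IFNg against IgG (50 to 1376 genes), from 7 to 29 for IgG against untreated (526 to 2703 genes) and from 0 to 9 for the day 1 term (4 to 295 genes). They were 0 throughout for anti-IFNg against untreated (1 to 18 genes) and for IgG against CTLs alone (0 to 2 genes). Members called without day 5 were the fewest in the first 3 comparisons. Fewer arrays remain in these fits.

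With normexp, anti-IFNg against IgG gave 643 genes, IgG against untreated 941, anti-IFNg against untreated 2, IgG against CTLs alone 0 and the day 1 term 43. The change per day, with no gene called as reported, then gave 23 members and 6288 genes for CTL against untreated and 1 member and 33 genes for anti-IFNg against IgG, and the cause was not tested. Without the filter on dim probes, CTL against untreated gave 3294 genes, anti-IFNg against IgG 1147, IgG against untreated 2007 and anti-IFNg against untreated 10. The stricter filter gave 4 genes for IgG against CTLs alone. Scaling to the median gave 54 genes for anti-IFNg against untreated. Quantile normalization, scaling to the median and the stricter filter each gave 1 member for the day 1 term. Genes called higher made up 45.0% of calls in CTL against untreated tumours with normexp, beside 32.1% as reported, 21.8% beside 52.8% for anti-IFNg against IgG and 65.4% beside 40.1% for IgG against untreated, while quantile and median scaling moved no split by over 10 points. Scaling to the median put the median of all genes at -0.24 in CTL against untreated tumours and at 0.16 in anti-IFNg against IgG.

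The change per day was not run without a day, for 2 arms alone or without the day block, and the day 1 term has no fit with 1 CTL effect. Signal over background limits Ifi44, Oas1b, Ifitm6 and Mx1, and the 4 untested genes. No arm and day was repeated, so single-day values carry no error.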
